A study of Arabidopsis thaliana with 6 samples.

Results

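Aquaporins are channel proteins that let water and small uncharged solutes cross membranes. All 35 annotated aquaporin loci of Arabidopsis thaliana were followed here, among 32833 loci counted: 13 plasma membrane intrinsic proteins (PIP), 10 tonoplast intrinsic proteins (TIP), 9 NOD26-like intrinsic proteins (NIP) and 3 small basic intrinsic proteins (SIP). They were taken by locus identifier, and the counts of all transcripts of a locus were added together. RNA came from seedlings of the Columbia genotype on agar plates, kept in darkness for 3 d either in air or with 0.7 ppm ethylene and then in ethylene-free light for 5 d. Each group had 3 libraries, and the groups shared genotype, medium and light regime. The labels do not tell separate cultures from repeated sampling, so every test refers to variation among libraries, part of which may be technical. In RNA from whole plants, fewer cells of a type and less RNA per cell cannot be told apart.

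As background, an aquaporin spans the membrane with 6 helices, and a pair of short loops, each carrying the residues Asn-Pro-Ala (the NPA box), meets in the pore. PIP2 proteins form water channels of the plasma membrane on their own, whereas PIP1 proteins generally reach it together with PIP2 partners. TIP proteins sit in the vacuole membrane, and some of them also carry ammonia or urea. NIP proteins carry solutes such as boric acid and arsenite, and SIP proteins lie in the endoplasmic reticulum. In plants, PIP and TIP channels carry much of the water flow through roots and into expanding cells.

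The NPA box was read from the coding sequences of the RefSeq annotation of assembly TAIR10.1, matched by locus identifier, as the sources used here do not name the build behind the counts. In-frame codons for Asn-Pro-Ala, AAN CCN GCN with T or C as the third base of the first codon, occurred at 2 places in all 13 PIP and all 10 TIP loci. Among the 9 NIP loci, 4 had 2 boxes, 4 had 1 and 1 had none, and each of the 3 SIP loci had 1. The locus with none was NIP5;1, which is known to carry serine and valine in place of the alanines. A stretch is shown for a member of each subfamily whose level rose after ethylene, because the box lines the pore and its letters vary among these members. Capitals mark the 3 codons of the box or of its variant.

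PIP2;8 (AT2G16850), second box, chr2:7302891-7302923, plus strand: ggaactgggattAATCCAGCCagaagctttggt
TIP2;3 (AT5G47450), second box, chr5:19248653-19248685, minus strand: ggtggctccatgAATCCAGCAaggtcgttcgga
NIP5;1 (AT4G10380), second variant box, chr4:6431683-6431715, minus strand: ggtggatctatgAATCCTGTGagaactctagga
SIP2;1 (AT3G56950), chromosome 3, only box, from coding base 526 across an exon junction: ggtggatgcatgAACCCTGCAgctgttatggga

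Plant counts per library ranged from 12870604 to 17116359, and 65882 to 86402 of them, or 0.469% to 0.532%, fell on aquaporin loci. Of the 35 loci, 25 had enough counts to be tested. Ethylene was set against air with edgeR's quasi-likelihood test, the p-values of 17887 loci were adjusted by the method of Benjamini and Hochberg (BH), and a locus was called at an adjusted p under 0.05. Levels are CPM, that is counts scaled to library size with edgeR's TMM factors, so they are relative levels but not shares of all counts. Summed over all tested loci, they came to 1058270 CPM on average in air and 944999 CPM after ethylene. Scaling on the added ERCC spike-in RNAs instead raised log2 fold changes throughout, and their median over all tested loci went from 0.02 to 0.47. Means are given ± SD over 3 libraries and log2 fold changes ± SE, the SE being derived from the fold change and the F statistic. Air replicate 3 stood apart from the other air libraries in genes of the root (numbers follow the count files), so results are given without it where that matters. Over loci in general, ethylene replicate 3 differed more from its group than air replicate 3 did.

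After ethylene, 8 aquaporin loci rose and 4 fell on the TMM scale, and 13 of the 25 tested did not pass the test. Together the 12 called loci compare with 32.6% of all tested loci, of which 15.8% were called higher and 16.8% lower. The rises comprised 3 PIP2, 3 TIP, 1 NIP and 1 SIP locus, and the falls 1 PIP1, 1 PIP2, 1 TIP and 1 SIP locus. With spike-in scaling 12 members were called higher and 1 lower, where 40.0% of all tested loci were higher and 4.63% lower. All 8 rises were among those 12, and PIP2;6 was the only fall still called.

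At least a 2-fold rise was found in 4 members, against 6.58% of all tested loci, and no member fell 2-fold, against 4.61%. Among the 25 tested members, every ethylene library lay above every air library in 10, against 23.9% of all tested loci, and below in 9, against 23.8%. The median log2 fold change of the 25 tested members was 0.15, against 0.02 for all loci, and it was 0.60 with spike-in scaling. Without air replicate 3 the median of the members was -0.00139, with 9 called higher and 4 lower. The median and the shares called over all loci were not taken for that fit.

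**Figure D1:**
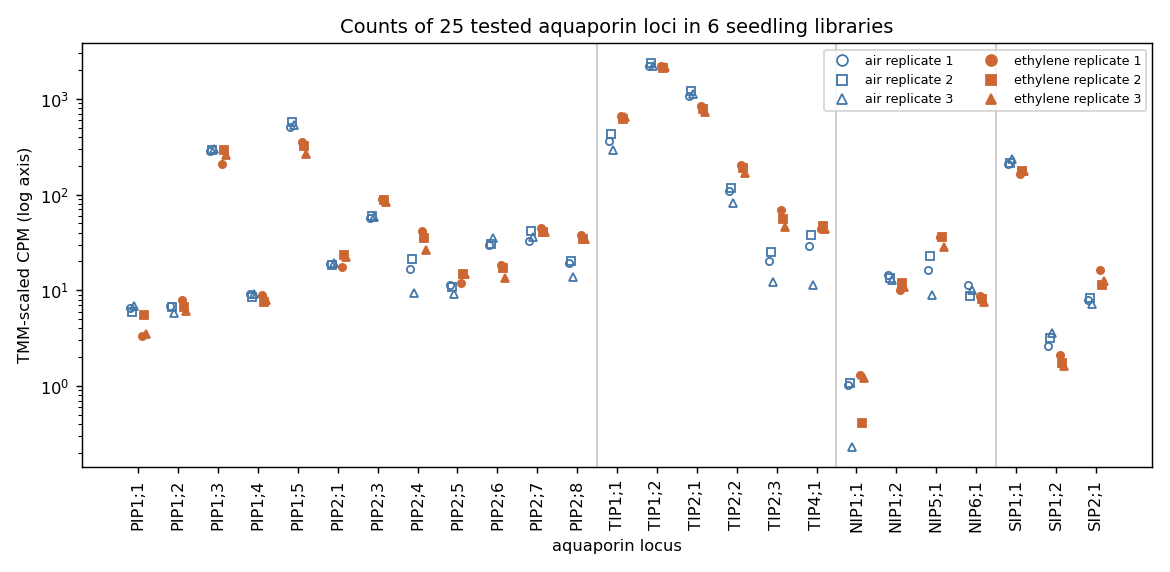
TMM-scaled CPM on a log axis for each of the 25 tested aquaporin loci, with open symbols for the 3 air libraries and filled symbols for the 3 ethylene libraries. TIP1;2 lies highest in every library, at 2112 to 2384 CPM, and the air libraries of TIP4;1 are spread from 11.3 to 37.4 CPM.

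**Figure D2:**
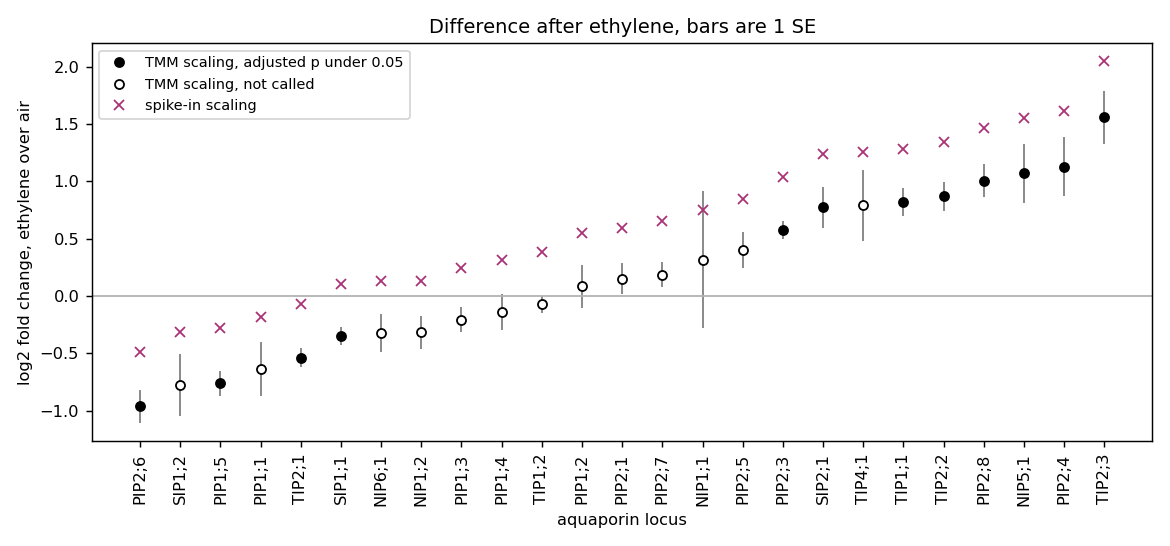
Log2 fold change of ethylene over air for the 25 tested loci, with bars of 1 SE; filled points were called at an adjusted p under 0.05 on the TMM scale, and crosses give the value with spike-in scaling. The points run from -0.96 in PIP2;6 to 1.56 in TIP2;3, and the crosses are shifted to higher values, so that several falls end near 0 or above it.

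Among the plasma membrane aquaporins the rises lay in the PIP2 class: of 7 tested PIP2 loci 3 rose and 1 fell. Of 5 PIP1 loci 1 fell and none rose, where 15.8% of all tested loci rose and 16.8% fell. With spike-in scaling 6 PIP2 loci were higher and 1 lower, and no PIP1 locus was called. On that scale 40.0% of all tested loci were higher and 4.63% lower. The difference between the classes was not tested. PIP2;4 (AT5G60660), a water channel known mainly from roots, had 16.7, 21.3 and 9.30 CPM in air replicates 1 to 3 and 41.2, 35.5 and 26.7 CPM in ethylene replicates 1 to 3. All ethylene libraries lay above the air libraries, and air replicate 3 was the lowest of all. It rose by 1.13 ± 0.26 on the log2 scale (edgeR BH-adjusted p = 0.00801), or by 0.85 without air replicate 3.

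PIP2;8, another channel of the class, had 19.1, 20.1 and 13.7 CPM in air and 37.5, 34.1 and 34.7 CPM after ethylene. Its groups were well apart, and the lowest value was again that of air replicate 3. The rise was 1.01 ± 0.14 on the log2 scale (edgeR BH-adjusted p = 0.000633), and 0.84 without that library. PIP2;3 (AT2G37180), first described as the desiccation-responsive gene RD28, had 56.5, 60.1 and 57.9 CPM in air and 89.4, 87.3 and 83.5 CPM after ethylene. Here the libraries of each group lay close together. RD28 rose by 0.58 ± 0.08 (edgeR BH-adjusted p = 0.000455).

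PIP2;6 (AT2G39010), known from rosette leaves, was the PIP2 locus that fell. Its levels were 30.1, 30.1 and 35.2 CPM in air and 18.4, 17.2 and 13.4 CPM after ethylene. Every ethylene library was below every air library, and air replicate 3 was the highest. Its log2 fold change was -0.96 ± 0.14 (edgeR BH-adjusted p = 0.000720), and -0.49 when scaled on the spike-ins (edgeR BH-adjusted p = 0.0445).

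PIP1;5 (AT4G23400) held the largest part of the PIP counts, 50.6% to 52.6% of the summed PIP CPM in air and 34.3% to 42.1% after ethylene. These are parts of the counts as deposited. How reads shared between isoforms were counted is not stated, so they may differ from parts of the transcripts present. PIP1;5 had 504, 569 and 533 CPM in air and 357, 325 and 266 CPM after ethylene, with no overlap. The log2 fold change was -0.76 ± 0.11 on the TMM scale (edgeR BH-adjusted p = 0.000576), but -0.28 on the spike-in scale, where it was not called (edgeR BH-adjusted p = 0.208).

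PIP1;3 (AT1G01620), next to it in counts, had 285, 288 and 300.4 CPM in air and 210.1, 289.6 and 257 CPM in the ethylene libraries. The groups overlapped, and its log2 fold change of -0.21 ± 0.11 did not pass the test and was 0.24 with spike-in scaling. The other PIP1 loci had 3.36 to 9.24 CPM in every library and log2 fold changes from -0.64 to 0.08, none of which passed. In PIP1;1, the lowest of these at -0.64 ± 0.23, the ethylene libraries nonetheless all lay below the air libraries (edgeR BH-adjusted p = 0.0615).

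In the rest of the PIP2 class, PIP2;1 (AT3G53420), a major water channel of roots and guard cells, was at 18.9 ± 0.479 CPM in air and 20.99 ± 3.10 CPM in the ethylene libraries. The locus PIP2;5 had 10.5 ± 1.148 and 13.8 ± 1.64 CPM, with all ethylene libraries above the air libraries, and a log2 fold change of 0.40 ± 0.16. PIP2;7 had 36.7 ± 4.44 and 41.7 ± 2.25 CPM and overlapped. These 3 loci did not pass the test on the TMM scale and were called higher on the spike-in scale.

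Summed over members, PIP1 CPM came to 848 ± 33.7 in air and 587 ± 46.8 after ethylene, and PIP2 CPM to 189.5 ± 11.7 and 249.8 ± 12.6. The NIP sums were 41.3 ± 7.40 and 54.5 ± 5.00 CPM, and the SIP sums 229.8 ± 12.0 and 187 ± 3.40 CPM. In these 4 classes the sums of the groups did not overlap, whereas the TIP sums did, at 3907 ± 268 and 3862 ± 120.1 CPM. The ratio of the mean sums, ethylene over air, was 0.69 for PIP1, 1.32 for PIP2, 1.32 for NIP, 0.81 for SIP and 0.99 for TIP. For the sum of all tested loci it was 0.89 on this scale. A sum weighs members by counts and not by molecules, so long transcripts weigh more, and it was given no test. Loci with several isoforms may be under-counted in it, as the handling of shared reads is not stated.

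**Figure D3:**
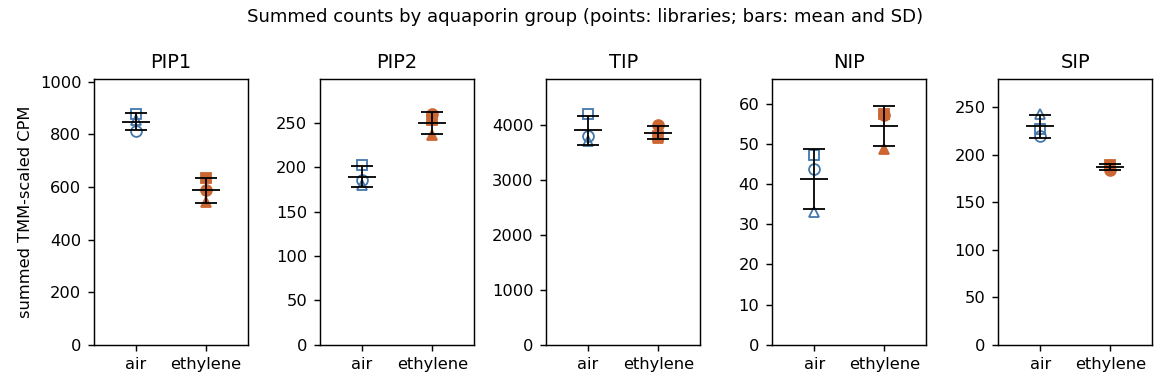
TMM-scaled CPM summed over the members of each aquaporin group, with a point for each library and bars for the mean and SD of 3 libraries; each panel has its own axis from 0. The ethylene libraries lie below the air libraries for PIP1 (587 against 848 on average) and SIP and above them for PIP2 and NIP, and the groups overlap for TIP; with spike-in scaling all ethylene values would lie higher.

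In the vacuole membrane family, 3 of the 6 tested TIP loci rose and 1 fell, where 15.8% of all tested loci rose and 16.8% fell. With spike-in scaling 4 TIP loci were higher and none lower, against 40.0% and 4.63% of all tested loci. TIP2;3, known from roots as an ammonia-permeable channel, had the highest log2 fold change among the tested members. It had 20.4, 24.99 and 12.1 CPM in air and 69.0, 54.9 and 45.3 CPM in the ethylene libraries. The lowest ethylene library was well above the highest air library. It rose 2.95-fold, by 1.56 ± 0.23 on the log2 scale (edgeR BH-adjusted p = 0.000820), and by 1.30 without air replicate 3.

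TIP2;2 (AT4G17340), also expressed in roots, had 108, 118 and 82.3 CPM in air and 203, 191 and 169 CPM in the ethylene libraries. The groups did not overlap, and it rose by 0.87 ± 0.13 (edgeR BH-adjusted p = 0.000779). TIP1;1 (AT2G36830), the gamma-TIP of large central vacuoles, had 365, 431 and 289.7 CPM in air and 660.6, 620.2 and 638 CPM after ethylene. All ethylene libraries lay close together and above the air libraries. Gamma-TIP rose by 0.82 ± 0.13 (edgeR BH-adjusted p = 0.000890). Without air replicate 3 the log2 fold changes of this pair were 0.72 and 0.67.

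TIP2;1 (AT3G16240), the delta-TIP, is of the same class as the pair of root-expressed TIP2 genes but had the opposite sign on the TMM scale. It had 1075, 1217 and 1124 CPM in air and 838, 788 and 726 CPM in the ethylene libraries. The groups did not overlap, and its part of the summed TIP CPM went from between 28.3% and 30.3% to between 19.2% and 20.96%. Delta-TIP had a log2 fold change of -0.54 ± 0.08 (edgeR BH-adjusted p = 0.000987), but of -0.07 on the spike-in scale, where it was not called (edgeR BH-adjusted p = 0.781).

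TIP1;2 (AT3G26520), a further gamma-type TIP, held the most counts of all members, 42.7% to 44.9% of the summed aquaporin CPM in the 6 libraries. It had 2199.8, 2384 and 2192 CPM in air and 2184, 2112 and 2152 CPM in the ethylene libraries. The groups stood side by side with hardly a gap. Its log2 fold change was -0.07 ± 0.07, which did not pass the test, and 0.39 with spike-in scaling, also not called.

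For TIP4;1 (AT2G25810), another root-expressed member, the call turned on single libraries and on the processing. It had 29.0, 37.4 and 11.3 CPM in air and 43.8, 46.8 and 43.8 CPM in the ethylene libraries. The ethylene libraries lay together above the air libraries, and air replicate 3 lay far below the rest. The log2 fold change of 0.79 ± 0.31 did not pass the test (edgeR BH-adjusted p = 0.0769). It was 0.42 without air replicate 3 (edgeR BH-adjusted p = 0.0256) and 1.13 without air replicate 2 (edgeR BH-adjusted p = 0.0159), and both of these were called. It was also called with spike-in scaling, at 1.26, with no filter on low counts and with a replicate block, whereas with DESeq2 the adjusted p was 0.226.

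Levels of different genes can be compared only per length, which was possible for the 19 loci with a single transcript in the files. In air, TIP1;2 stood at 1751 ± 84.2 CPM per kilobase of transcript, followed by delta-TIP at 958 ± 60.5, PIP1;5 at 403 ± 24.3 and gamma-TIP at 292.5 ± 57.2. After ethylene, gamma-TIP stood at 517 ± 16.4 CPM per kilobase and PIP1;5 at 238 ± 34.6, so these neighbours in the order had exchanged places. SIP1;1, TIP2;2 and RD28 followed in air at 169 ± 9.35, 76.0 ± 13.6 and 47.7 ± 1.46 CPM per kilobase. Down to this rank, no locus overlapped in air with the next in the order. From rank 8, held by TIP4;1 at 22.0 ± 11.3 CPM per kilobase, down to rank 14, neighbours overlapped in every case. The 5 loci at the end of the order, 4 of them TIP loci of seeds and pollen, had under 1 CPM per kilobase.

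Of the 4 tested NIP loci 1 rose and none fell, where 15.8% of all tested loci rose and 16.8% fell. The one called was NIP5;1, the boric acid channel through which roots take up boron. It had 16.4, 22.6 and 9.00 CPM in air and 36.4, 35.8 and 28.4 CPM in the ethylene libraries. The ethylene libraries all lay above the air libraries, of which replicate 3 was the lowest. It rose by 1.07 ± 0.26 on the log2 scale (edgeR BH-adjusted p = 0.0107), and by 0.77 without that library. Its relative NIP6;1 (AT1G80760), which distributes boric acid at shoot nodes, had 11.4, 8.77 and 10.1 CPM in air and 8.65, 8.14 and 7.54 CPM after ethylene. NIP1;2 (AT4G18910), reported to carry aluminium malate, had 14.5, 13.4 and 12.96 CPM in air and 10.1, 11.9 and 10.9 CPM after ethylene.

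In both of these genes the ethylene libraries lay below the air libraries, by a narrow gap in the first. Their log2 fold changes of -0.32 ± 0.16 and -0.32 ± 0.14 did not pass the test (edgeR BH-adjusted p = 0.168 and 0.112), and both were 0.13 with spike-in scaling. The arsenite channel gene NIP1;1 had 3 to 22 counts per library and overlapped.

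BOR2, an exporter that passes boron on from root cells, was the only tested gene of the 3 boron exporters. It rose by 1.33 ± 0.24, from 35.02 ± 12.98 to 88.1 ± 16.8 CPM, with the ethylene libraries all above the air libraries (edgeR BH-adjusted p = 0.00230). BOR1 had 4 to 17 counts per library and BOR4 at most 6.

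Of the 3 SIP loci 1 rose and 1 fell on the TMM scale, where 15.8% of all tested loci rose and 16.8% fell. SIP2;1 had 7.93, 8.36 and 7.17 CPM in air and 16.4, 11.3 and 12.5 CPM after ethylene. Its air libraries lay close together below those of ethylene, and it rose by 0.77 ± 0.18 (edgeR BH-adjusted p = 0.00840). SIP1;1 (AT3G04090), with 89.9% to 95.6% of the summed SIP CPM, had 209, 215 and 232 CPM in air and 165, 176 and 175 CPM in the ethylene libraries. The groups did not overlap. The log2 fold change was -0.35 ± 0.08 on the TMM scale (edgeR BH-adjusted p = 0.00653), but 0.11 and not called on the spike-in scale.

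The third SIP locus, SIP1;2 (AT5G18290), had 2.62, 3.20 and 3.58 CPM in air and 2.13, 1.76 and 1.61 CPM after ethylene. All ethylene values were below those of air, and its log2 fold change of -0.77 ± 0.27 lay at the threshold (edgeR BH-adjusted p = 0.0502). It was called with RLE factors and when only the most abundant transcript of each locus was used.

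The 10 loci that could not be tested had at most 9 counts in any library. Those of pollen were at or near 0: TIP1;3 and NIP4;1 had no count in 6 libraries, TIP5;1 had 1 count in all and NIP4;2 had 8. A library without a count allows up to 3, and this covers counting error only. NIP7;1, known from anthers, had 16 counts in all, and NIP2;1, a channel induced by low oxygen, had 38. TIP3;1, the alpha-TIP of seed storage vacuoles, had 1 count in all.

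TIP3;2 (AT1G17810), the beta-TIP of the same vacuoles, had 6, 6 and 8 counts in air and none in any ethylene library. It was at least 8.47-fold lower after ethylene, against a floor of 3 counts over the ethylene group that takes the air counts as they are. With the counting error of both groups, the exact interval at 95% confidence reaches up to a ratio of 0.159 of ethylene to air. With no filter on low counts it was called lower (edgeR BH-adjusted p = 0.00740). NIP3;1 (AT1G31885) had 0, 1 and 0 counts in air and 3, 8 and 4 after ethylene. The ratio was 11.8, with an exact interval of 1.82 to 497 at 95% confidence for counting error, and it was not called without the filter (edgeR BH-adjusted p = 0.111).

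The root water channel gene PIP2;2 (AT2G37170) had 2, 2 and 1 counts in air and 4, 9 and 3 after ethylene. Its ratio of 2.52 had an exact interval for counting error of 0.881 to 8.79. It lies beside RD28 on chromosome 2, and the coding sequences of the neighbours were 94.8% identical over 858 bases, the highest identity between members of a subfamily. Their longest identical run was 242 bases. A stretch of 90 coding bases with 12 of the 45 differences is printed because only such bases tell the reads of one gene from those of the other, and capitals mark the bases that differ.

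PIP2;2, chr2:15614179-15614268, minus strand: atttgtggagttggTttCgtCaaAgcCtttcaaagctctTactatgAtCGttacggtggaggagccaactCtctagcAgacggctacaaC
PIP2;3, chr2:15618302-15618391, plus strand: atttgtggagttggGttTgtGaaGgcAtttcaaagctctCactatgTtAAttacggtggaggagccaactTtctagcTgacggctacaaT

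The sources used here do not say how reads shared between transcripts were counted, so the share of each transcript's 50-base windows that occurs in no other annotated transcript was computed. All 57 aquaporin transcripts of the files were found in the RefSeq annotation. RD28 had 78.3% of its windows to itself. Its neighbour has 2 annotated isoforms, and their sequences largely overlap: isoform 1 had no window and no count of its own, and isoform 2 had 10.8% of its windows to itself and all 21 counts.

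Among the 16 loci with several isoforms, 11 of 38 isoforms had under 5% of windows to themselves, a limit chosen after the values were seen. Of these 11 isoforms, 10 had no count in any library and the other had 4 counts in all. Of the other 27 isoforms, 2 had no count. The isoforms that carry the counts of PIP1;1 and PIP2;1 had 17.6% and 19.7% of windows to themselves, so levels of such loci cannot be set against those of single-transcript loci.

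**Figure D4:**
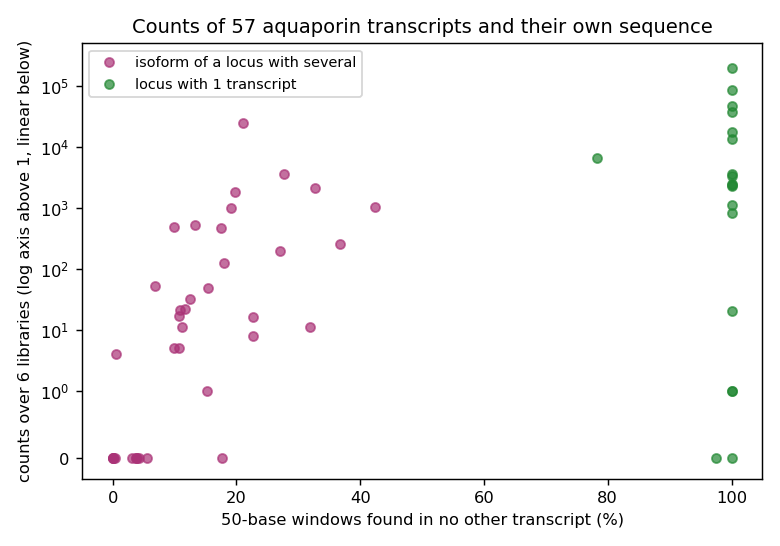
Counts of each of the 57 aquaporin transcripts summed over 6 libraries, on an axis that is linear below 1 and logarithmic above, against the percentage of its 50-base windows found in no other annotated transcript. Isoforms of loci with several transcripts lie at the left, where 10 of the 11 under 5% are at 0 counts, and most single-transcript loci lie at 100%.

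The calls were also counted by the number of transcripts of a locus. Among the 14 tested loci with 1 transcript 7 rose and 3 fell, and among the 11 with several, SIP2;1 rose and PIP2;6 fell. Of all tested loci 15.8% rose and 16.8% fell, and their shares by number of transcripts were not counted. The part of isoform structure in this split was not tested. In a fit on single transcripts, where 14.9% of 19123 tested were called higher and 15.6% lower, 8 aquaporin transcripts were higher and 5 lower. The additional fall was that of isoform 1 of SIP1;2, at -0.94 ± 0.28 (edgeR BH-adjusted p = 0.0268). The authors' deposited table likewise has 26 aquaporin transcripts, 8 of them higher and 5 lower at an adjusted p under 0.05, where 14.6% and 15.7% of all transcripts with an adjusted p were so. The same 13 were called with the same sign in both, and log2 fold changes in the authors' deposited table differed from those of the fit by at most 0.00802.

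Several root markers rose beside the aquaporins. Of 20 markers, 18 were tested, 6 rose, none fell and 12 did not pass the test, where 15.8% of all tested loci rose and 16.8% fell. Their median log2 fold change was 0.63, against 0.02 for all loci. With spike-in scaling 16 were higher, where 40.0% of all loci were, and the median was 1.10, against 0.47. PHT1;1, a phosphate carrier of roots, rose by 1.48 ± 0.24, from 44.1 ± 14.6 to 123 ± 28.3 CPM (edgeR BH-adjusted p = 0.00126). PLT2, a regulator of the root meristem, rose by 1.32 ± 0.30, and CASP2 of the Casparian strip by 0.85 ± 0.23 (edgeR BH-adjusted p = 0.00770 and 0.0164). The iron carrier IRT1, with the highest CPM of the list, rose by 1.42 ± 0.40, from 91.6 ± 55.2 to 245 ± 88.4 CPM (edgeR BH-adjusted p = 0.0207).

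The number of rising root markers depended on single libraries. It was 3 when air replicate 1 was left out and 10 when air replicate 2 was. Leaving out the first ethylene library gave 2, the second 4. Shares over all loci were not counted for these fits. The summed markers ranged from 242 to 464 CPM in air and from 535 to 790.1 CPM after ethylene, and the root cap gene SMB and the nitrate carrier gene NRT2.1 did not pass the edgeR filter. NRT2.1 had 4, 0 and 0 counts in air and 17, 76 and 11 after ethylene, and DESeq2 called it higher (adjusted p = 0.000274). Air replicate 3 was the lowest air library for 14 of the 18 tested markers. It was also the lowest for 7 of the 8 aquaporins that rose and for none of the 4 that fell. These loci were called with that library included, so this count draws on the same values as the calls. The share over all called loci was not counted, nor was the share over all tested loci for the markers, so neither count has a baseline. All 8 rises were still called without air replicate 3. The part of root tissue in the aquaporin differences was not tested.

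**Figure D5:**
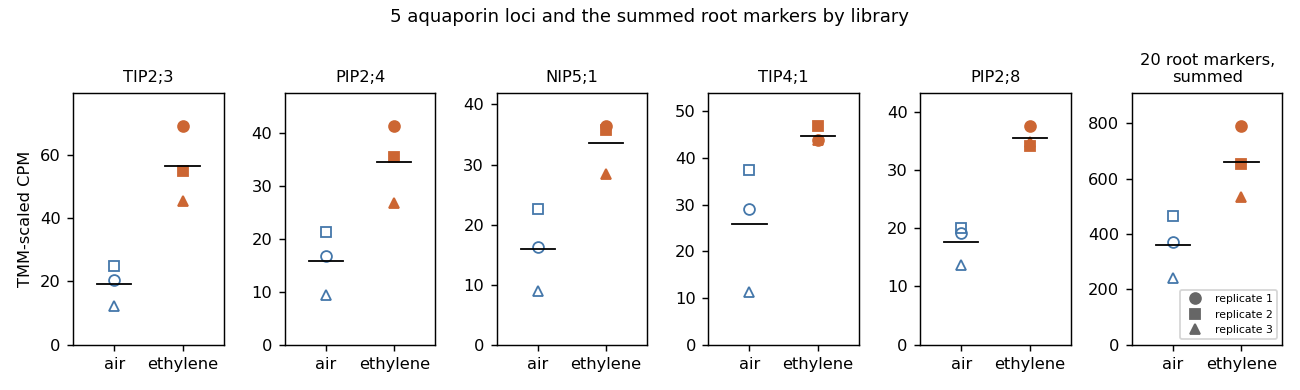
TMM-scaled CPM by library for 5 aquaporin loci and for the sum of 20 root markers, with symbols for the replicates and a line at each group mean; each panel has its own axis from 0. The ethylene libraries lie above the air libraries in each panel, and air replicate 3 is the lowest air library, at 242 CPM for the marker sum.

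Of 6 green leaf markers tested, 3 fell on the TMM scale, none rose and 3 did not pass the test, where 16.8% of all tested loci fell. The sum of the 6 markers ranged from 42648 to 45858 CPM in air and from 29166 to 30756 CPM after ethylene. PSAF of photosystem I fell by 1.19 ± 0.08, CAB1 of the light-harvesting antenna, with the highest CPM of the list, by 0.65 ± 0.07, and GAPA of the Calvin-Benson cycle by 0.44 ± 0.08 (edgeR BH-adjusted p = 1.38e-05, 0.000171 and 0.00247). With spike-in scaling PSAF alone was called lower, and GAPA had a log2 fold change of 0.02. The part of leaf tissue in the 4 aquaporin falls was not tested.

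Seed markers summed to 1.68 to 10.3 CPM in air and 21.8 to 34.9 CPM after ethylene. Of 15, the albumin genes SESA2 and SESA5 were the only ones tested, and they rose by 2.07 ± 0.62 and 3.41 ± 0.52 (edgeR BH-adjusted p = 0.0284 and 0.000887). The storage globulin genes CRA1 and CRU3 and the oil body gene OLEO1 were at 0 in every library. SESA2 had 92, 64 and 1 counts in air and 234, 232 and 372 after ethylene, and it was not called with DESeq2 (adjusted p = 0.229). A single albumin gene was called when any ethylene library was left out. The untested seed genes with counts went in both directions. PER1 had 19, 0 and 2 in air and none after ethylene, and OLEO2 had 7, 0 and 7 in air and 1 in all after ethylene. OLEO4 had 7 counts in all in air and 12 after ethylene, and EM6 had 10 and 14. With no filter on low counts, 1 seed marker was called lower.

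Proton pumps energize the membranes in which aquaporins work, and 12 of 16 pump genes were tested. On the TMM scale 1 rose, 2 fell and 9 did not pass the test, where 15.8% of all tested loci rose and 16.8% fell. The median log2 fold change was -0.01. A single fall was left on dropping replicate 1 or 3 of air or replicate 1 or 2 of ethylene, and in the fit on the most abundant transcript. With spike-in scaling 4 pump genes were higher and 1 lower, where 40.0% and 4.63% of all tested loci were. Their median was then 0.44, against 0.47 for all loci. AHA2, the main plasma membrane pump of roots, rose by 1.17 ± 0.19, from 18.7 ± 4.39 to 42.3 ± 8.90 CPM (edgeR BH-adjusted p = 0.00138). AHA11, of the same family, fell by 1.10 ± 0.11, from 224 ± 34.3 to 104 ± 7.88 CPM (edgeR BH-adjusted p = 0.000108). AHA1 fell by 0.90 ± 0.28 on the TMM scale (edgeR BH-adjusted p = 0.0340) and was not called on the spike-in scale. The vacuolar pump subunit gene VHA-A3, with the most counts of the list, was at 549.6 ± 24.4 and 482 ± 41.4 CPM and did not pass the test.

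Of 5 tested genes that act on the traffic and turnover of PIP proteins, 3 fell on the TMM scale and none rose. Of all tested loci 16.8% fell. The median log2 fold change of the 5 genes was -0.54, against 0.02 for all loci. RMA1 and SYP61 did not pass the test, with log2 fold changes of -0.66 and 0.12. Dropping ethylene replicate 1 or 3 left 1 fall, and DESeq2 or upper-quartile factors left 2. RMA2 and RMA3, homologues of the membrane-anchored ubiquitin ligase RMA1, fell by 0.54 ± 0.11 and 0.53 ± 0.14 (edgeR BH-adjusted p = 0.00450 and 0.0164). SYP121, a plasma membrane syntaxin that takes part in PIP delivery, fell by 0.55 ± 0.19 (edgeR BH-adjusted p = 0.0455). Scaled on the spike-ins, the 3 genes had log2 fold changes of -0.10, -0.08 and -0.11, and no gene of the list was called.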

How the data were processed

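RNA was measured in 6 seedling libraries, made by Trizol extraction, enrichment and fragmentation of mRNA, and random priming, per the labels' protocols. The authors deposited whole-number read counts per transcript for 54013 plant identifiers and 92 spike-in RNAs. Aligner, counting program, build and strand setting are not given in the sources used here. A comparison per transcript was deposited too, with log2 fold changes and p-values per the file headers. In the deposited comparison tables, 12 columns of per-sample values were not used here. The air columns named there for replicates 1 and 3 appear exchanged against the count files, whose numbers are kept. Groups are unaffected, but which library is replicate 1 or 3 is uncertain. Counts were summed to 32833 loci, joining 325 lower-case identifiers to theirs. Spike-ins stayed out of library sizes and tests.

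Differences were tested with edgeR 4.0.16 in R 4.3.3 (TMM factors, filterByExpr with a minimum count of 10 and a minimum total of 15, group alone), with BH adjustment over all loci. The procedure was tested on simulated data. A single count corresponded to 0.0554 to 0.0819 CPM. Alternatives were DESeq2 1.42.0, other scalings, filters and isoform choices, a replicate block and leaving out each library. No replicates agreed within sampling noise (chi-square per degree of freedom from 5.01 to 26.6). Ethylene replicate 3 had 26.6 and 21.8 against ethylene replicates 1 and 2. Air replicate 3 had 9.15 and 13.8 against air replicates 1 and 2. The members, gene lists and tests were chosen with earlier results of these data known. Every member is accounted for, with values per library for called members and the 3 with the highest CPM in each subfamily. From each list, up to 3 called genes with the smallest p and the one with the highest CPM are named. TIP4;1, the low-count exporters, RMA1, SYP61 and the untested markers were named after their values were seen. RefSeq names matched 34 of the 35 members, and TIP3;2 is listed there as BETA-TIP.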

Additional observations from a re-analysis of the deposited data

How the results depend on the processing

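The 8 rises were called under all 14 alternatives. With spike-in scaling, the members called lower went from 4 to 1, PIP members from 3 to 6 higher and from 2 to 1 lower, TIP members from 1 to 0 lower, NIP and SIP members from 1 to 0 lower, and the median log2 fold change of the tested members from 0.15 to 0.60. This scaling raised log2 fold changes throughout. The log2 fold changes that changed sign under it were those of PIP1;3 (0.24), PIP1;4 (0.31), TIP1;2 (0.39), NIP1;2 (0.13), NIP6;1 (0.13) and SIP1;1 (0.11). With no filter on low counts 2 TIP members were lower, and 2 NIP and SIP members were lower with RLE factors and in the fit on the most abundant transcript; TIP3;2 and SIP1;2 were the additions. Leaving out each library in turn, with no median over all loci taken beside it, gave medians of the members from -0.00139 (air replicate 3) to 0.121, and the cause was not tested. Log2 fold changes then ranged from -0.028 to 0.16 for PIP1;2 and from -0.13 to 0.68 for NIP1;1. Over the single members, 325 values under an alternative kept direction and side of the threshold, 11 gained a call, 2 lost it with the same sign (PIP1;5 and TIP2;1, with spike-in scaling) and 9 changed sign, among them SIP1;1, which lost its call with that scaling as well. With the replicate number as a block, 9 members were higher and 4 lower, TIP4;1 being added. Same-numbered libraries had correlations of deviations of 0.02, -0.06 and 0.12 across genes, and 2 of 6 samples correlated best with their own number. This cannot decide whether libraries were paired, as the numbers of air replicates 1 and 3 are uncertain and the libraries are few. The numbers of air replicates 1 and 3 rest on the names of the count files. The 10 untested loci had at most 9 counts in a library.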
